A study of Mus musculus with 2 samples.

Results

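The Gimap genes encode the GTPases of immunity-associated proteins, and 11 probe sets of 8 of them (Gimap1 and Gimap3 to Gimap9) were compared between gamma/delta and CD8+ alpha/beta T cells. They were taken by name, as every probe set whose only annotated symbol begins with Gimap, out of 18193 genes so named on the array. The rule uses no signal, although the family was picked with earlier results of these data known. The gamma/delta T cells are labelled as naive and CD44-, the alpha/beta T cells as naive and CD8+, and the source of both was lymph nodes of C57BL/6 mice. Each was obtained by negative selection, in which other cells are removed and the wanted cells stay untouched, and each was hybridised to 1 Affymetrix MOE430 2.0 array. The labels give no age, sex or number of animals and no genetic change or treatment in either group.

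GIMAP proteins share a GTP-binding domain of the AIG1 type and are made chiefly in lymphocytes. The family is best known for keeping resting lymphocytes alive: mice without Gimap5, and rats with the lymphopenia mutation of the same gene, lose most of their peripheral T cells, and mice without Gimap1 lose mature T and B cells. Several members have been reported to bind proteins of the Bcl2 family, which set the threshold for apoptosis through mitochondria, and GIMAP6 has been tied to autophagy. Naive T cells depend on interleukin 7 for the same survival machinery.

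The values are MAS5 signals, a linear brightness per probe set in scaled units, and the log2 ratio is gamma/delta over alpha/beta throughout. Signals under a floor of 243, the higher of the array medians, carry little order and were raised to it. The arrays had medians of 243 in gamma/delta T cells and 242 in alpha/beta T cells. With 1 array in each group there is no replicate error and no test, and precision is limited by the number of arrays. The spread at hand is the one among probe sets that read the same gene, with a pooled SD of 0.50 on the log2 scale over 3317 genes whose probe sets lay above the floor on both arrays, and of 0.37 over 766 genes with signals of 1000 or more. In such bulk samples fewer cells of a type and less RNA per cell cannot be told apart. As a sign of RNA integrity, the signal at the 3′ end over that at the 5′ end was 6.99 in gamma/delta T cells and 3.12 in alpha/beta T cells for actin, and 3.06 in gamma/delta T cells and 3.24 in alpha/beta T cells for Gapdh. For the transferrin receptor this ratio was 3.97 in gamma/delta T cells and 4.47 in alpha/beta T cells. The part of RNA integrity in the Gimap results was not tested.

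All 8 Gimap genes lie side by side on mouse chromosome 6, in the order Gimap8, Gimap9, Gimap4, Gimap6, Gimap7, Gimap1, Gimap5 and Gimap3, with no other protein coding gene between the first and the last in the RefSeq table. Gimap6 and Gimap3 are on the minus strand and the other members on the plus strand. The sequences just before the starts of Gimap7, Gimap9 and Gimap3 are shown because these are the members with the highest ratio, the lowest ratio and the ratio nearest to 0. They are from RefSeq on build GRCm38.p6, read 5′ to 3′ on the strand of the gene, at chr6:48718371-48718620 for Gimap7, chr6:48675885-48676120 for Gimap9 (both plus strand) and chr6:48770852-48771101 for Gimap3 (minus strand), and end at the base before the annotated gene. Capitals mark TGTGGT, the core bound by RUNX factors, GGAAGT, a core bound by ETS factors, and GTAAACA, bound by FoxO factors, on either strand.
Gimap7: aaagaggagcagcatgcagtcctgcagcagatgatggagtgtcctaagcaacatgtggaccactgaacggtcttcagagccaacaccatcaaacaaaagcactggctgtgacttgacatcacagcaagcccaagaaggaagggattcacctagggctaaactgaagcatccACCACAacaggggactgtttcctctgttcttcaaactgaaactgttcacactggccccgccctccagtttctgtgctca
Gimap9: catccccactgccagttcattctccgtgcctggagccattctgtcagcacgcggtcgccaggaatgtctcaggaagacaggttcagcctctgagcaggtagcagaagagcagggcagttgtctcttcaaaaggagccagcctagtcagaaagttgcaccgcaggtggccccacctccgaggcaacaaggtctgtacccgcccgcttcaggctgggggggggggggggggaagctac
Gimap3: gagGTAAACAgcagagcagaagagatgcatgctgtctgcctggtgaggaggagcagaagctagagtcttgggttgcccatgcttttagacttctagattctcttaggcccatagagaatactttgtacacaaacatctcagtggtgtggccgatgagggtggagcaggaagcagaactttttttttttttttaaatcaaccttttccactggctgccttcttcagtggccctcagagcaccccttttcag

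These motifs were searched in the 250 bases before each start in the table, and no printed match overlaps another. The printed run of Gimap9 is shorter, since its start in that table lies within the annotated gene. TGTGGT stood before Gimap4, Gimap7 and Gimap1, in Gimap7 with its first base 79 bases before the gene, and 14.0% of all 32851 such windows hold it. GGAAGT stood before Gimap6 and Gimap5 and is in 19.7% of all windows. GTAAACA stood before Gimap3, with its first base 247 bases before the gene, and is in 3.17% of all windows. The window of Gimap9 held none of these letters. Its GC content of 61.2% was the highest of the 9 Gimap windows, whose median was 47.6%, against 52.4% over all windows. Gimap8 has 2 of these windows.

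**Figure D1:**
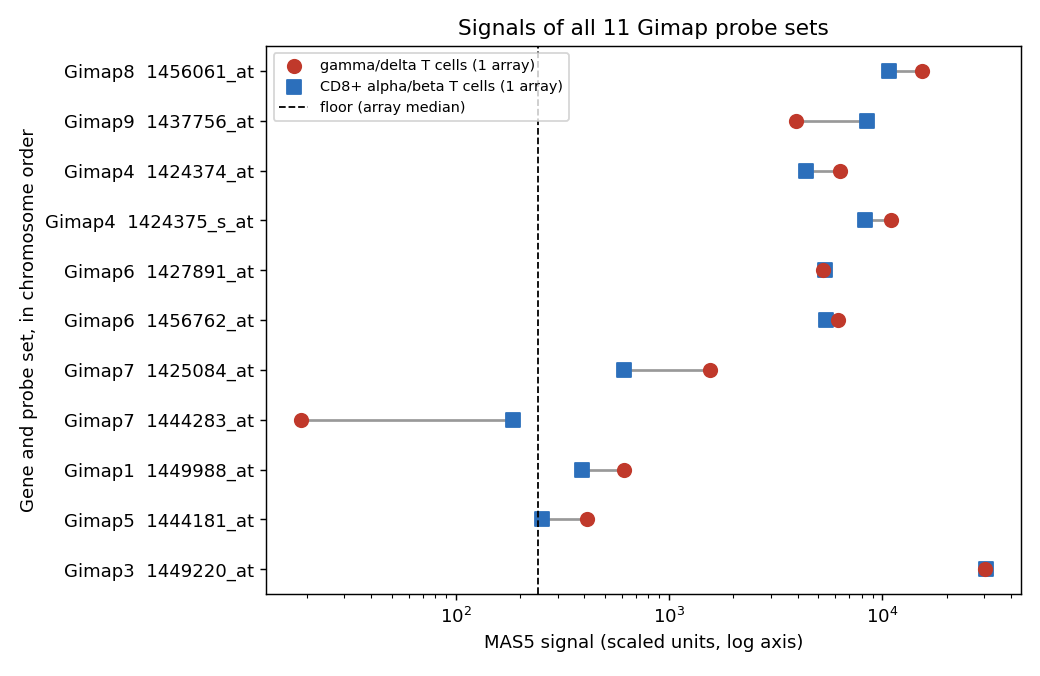
Signal of each Gimap probe set (MAS5 units, log axis) on the gamma/delta array (red circles) and the CD8+ alpha/beta array (blue squares), in chromosome order, with 1 array per group and the floor of 243 as a dashed line. Gimap9 is brighter in alpha/beta T cells, the upper probe set of Gimap7 is brighter in gamma/delta T cells, the lower one lies under the floor on both arrays, and Gimap3 overlaps.

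The family did not differ as a block. Gimap7 was 2.52-fold higher in gamma/delta T cells, Gimap9 was 2.14-fold lower, and the other 6 genes differed by less than 2-fold. Gimap1, Gimap4, Gimap5 and Gimap8 leaned towards gamma/delta T cells, and Gimap3 and Gimap6 were close to equal. Of the 10 Gimap probe sets with a ratio, 1 reached 2-fold upwards in gamma/delta T cells, as did 4.68% of all 26402 probe sets with a ratio, and 1 reached it downwards, as did 3.99%. By genes, with the brightest probe set standing for each, 1 of 8 was higher and 1 of 8 lower, where 5.82% and 3.93% of all 11914 genes were. With 10 probe sets a single call in each direction reads as nothing particular to the family. The median log2 ratio over the 10 probe sets was 0.46, against 0.00 over all probe sets, and over the 8 genes it was 0.46 against 0.03. Over the 7 Gimap probe sets with a signal of 1000 or more on both arrays it was 0.19, with 4 above 0 and 3 below. Over all 4979 probe sets this bright it was -0.05.

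Gimap7, a GTPase whose human form has been shown to pair with and activate GIMAP2, stood at 1549 in gamma/delta T cells and 616 in alpha/beta T cells on the probe set 1425084_at. Its log2 ratio of 1.33 was the highest of the family. A second probe set annotated to Gimap7, 1444283_at, read 18.7 in gamma/delta T cells and 186 in alpha/beta T cells. Both readings are under the floor, so it gives no ratio, and its raw values run the other way. The higher level in gamma/delta T cells therefore rests on 1 probe set. With the log2 signals of both averaged, Gimap7 lay under the floor in gamma/delta T cells (170.3) and above it in alpha/beta T cells (339), a bound of -0.48 on the log2 scale.

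Gimap9 had a signal of 3938 in gamma/delta T cells and 8425 in alpha/beta T cells on its 1 probe set, 1437756_at, a log2 ratio of -1.10. It was the only member more than 1.5-fold lower in gamma/delta T cells. Among the 7 Gimap probe sets with a signal of 1000 or more on both arrays it was the only one called, since 0 of the 7 reached 2-fold upwards and 1 downwards, against 3.21% and 4.94% of all 4979 probe sets this bright. After an intensity-dependent loess its log2 ratio was -0.9985, just short of 2-fold. Its neighbours on the chromosome, Gimap8 and Gimap4, leaned the other way.

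Gimap8, which carries several GTP-binding domains in 1 protein, had signals of 15361 in gamma/delta T cells and 10759 in alpha/beta T cells on the probe set 1456061_at. This is a log2 ratio of 0.51, or 1.43-fold. Probe sets with a signal of 10000 or more on both arrays had a median log2 ratio of -0.23 over 495 of them, 346 of which were below 0, so that Gimap8 stood on the other side of 0 from most transcripts of its brightness. Gimap4, whose loss has been found to slow the death of T cells in culture, was read by 2 probe sets. The first, 1424374_at, gave 6321 in gamma/delta T cells and 4365 in alpha/beta T cells, a log2 ratio of 0.53. The other, 1424375_s_at, gave 10971 in gamma/delta T cells and 8287 in alpha/beta T cells, a log2 ratio of 0.40. The ratios of these probe sets differed by only 0.13, although they share their source accession and so are not independent readings.

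Gimap5, the member whose loss causes lymphopenia, was dim on its 1 probe set, 1444181_at, at 414 in gamma/delta T cells and 253 in alpha/beta T cells. The second value is barely above the floor. The log2 ratio was 0.71, or 1.63-fold. Gimap1, needed for mature lymphocytes, stood at 615 in gamma/delta T cells and 391 in alpha/beta T cells on 1449988_at, a log2 ratio of 0.65 or 1.57-fold. Signals of different probe sets cannot be ranked against each other, so a dim probe set does not say that Gimap5 or Gimap1 transcript was scarcer than that of the other members. At the lower limit of 1.5-fold, Gimap7, Gimap5 and Gimap1 were higher in gamma/delta T cells, 3 of 10 probe sets, and Gimap9 was lower, 1 of 10. The same limit was passed by 14.6% of all probe sets upwards and by 13.9% downwards. In gamma/delta T cells Gimap8 and the first probe set of Gimap4 also passed it upwards after quantile normalization, at 1.58-fold and 1.55-fold, and after loess, at 1.60-fold and 1.54-fold. This made 5 of 10 under either, settings applied to this limit after its values were seen, where 13.9% and 14.1% of all probe sets passed upwards. Downwards Gimap9 alone passed under either, 1 of 10, beside 14.4% of all probe sets after quantile normalization and 14.2% after loess. The Gimap genes resemble each other in sequence, and hybridisation of one member to the probes of another was not tested.

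Gimap3, a close relative of Gimap5 found at the outer membrane of mitochondria in mice, gave nearly the same signal in both, 30424 in gamma/delta T cells and 30679 in alpha/beta T cells on 1449220_at. Its log2 ratio was -0.01, and 0.21 after quantile normalization and 0.22 after loess, so it has no direction. Gimap6, the member linked to autophagy, had 2 probe sets. The first, 1427891_at, read 5240.4 in gamma/delta T cells and 5394 in alpha/beta T cells, a log2 ratio of -0.04 that turned to 0.05 after both quantile normalization and loess. The other, 1456762_at, read 6211 in gamma/delta T cells and 5440.1 in alpha/beta T cells, a log2 ratio of 0.19. They differed by 0.23, which is less than the spread between probe sets of one gene.

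**Figure D2:**
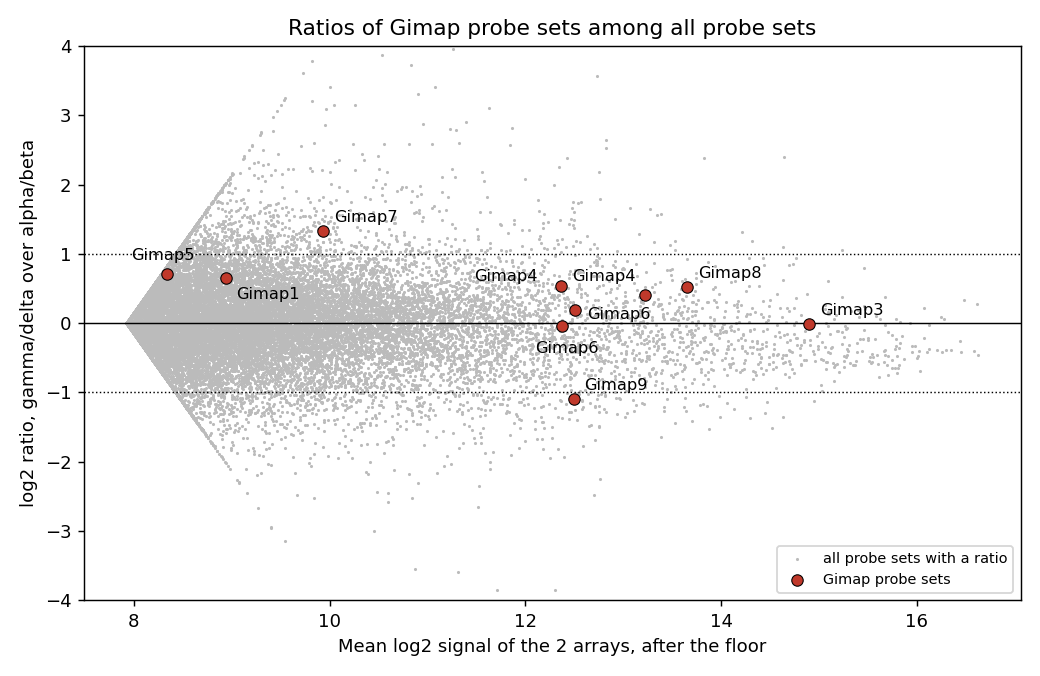
Log2 ratio of gamma/delta over alpha/beta against the mean log2 signal of both arrays for all probe sets with a ratio (grey) and the 10 Gimap probe sets with one (red), 1 array per group. Dotted lines mark 2-fold. The axis ends at log2 ratios of -4 and 4, beyond which 22 probe sets lie. Gimap7 is above the upper line, Gimap9 below the lower one, and the rest fall within the grey band.

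Ordered by ratio, the genes ran Gimap7, Gimap5, Gimap1, Gimap8, Gimap4, Gimap6, Gimap3 and Gimap9. The steps of 0.62 from Gimap7 to Gimap5 and of 1.09 from Gimap3 to Gimap9 were larger than the SD of 0.50 between probe sets. Each other step was smaller. A step is a difference between ratios, so its spread is wider than this SD, which belongs to single ratios. The step of 0.62 is too close to the SD to set Gimap7 apart from Gimap5. From Gimap7 to Gimap3 no gene is thus resolved from the next in the order. The SD holds no variation between arrays or animals of a group, so it cannot show that Gimap9 is resolved from Gimap3.

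The genes that flank the cluster were compared in the same way, 10 protein coding genes on each side. Of these 20 genes, 16 were on the array under 1 symbol and 11 had a ratio. In gamma/delta T cells 2 of the 11 reached 2-fold upwards and 0 downwards, and the median log2 ratio of the 11 was 0.50, where 5.82% of all genes were called upwards, 3.93% downwards, and the median was 0.03. The median of 0.50 is the value of Rarres2, which is a bound. Tmem176a, a membrane protein gene lying beyond Gimap3, read 2793 in gamma/delta T cells and 819.5 in alpha/beta T cells, 3.41-fold higher in gamma/delta T cells. That is a log2 ratio of 1.77, and its other probe sets, under the floor in alpha/beta T cells, gave bounds of at least 1.94 and 2.00. Lrrc61, before Gimap8, read 586 in gamma/delta T cells and 179.7 in alpha/beta T cells, under the floor there, and was at least 2.41-fold higher. Among the brightest of the others, Zfp746 and Igf2bp3 had log2 ratios of 0.65 and 0.72, and Krba1 one of 0.06, with a bound of at least 0.61 on a dimmer probe set. Gpnmb, named after its values were seen, went the other way at -0.85, with a bound of -0.36 or lower on its second probe set.

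**Figure D3:**
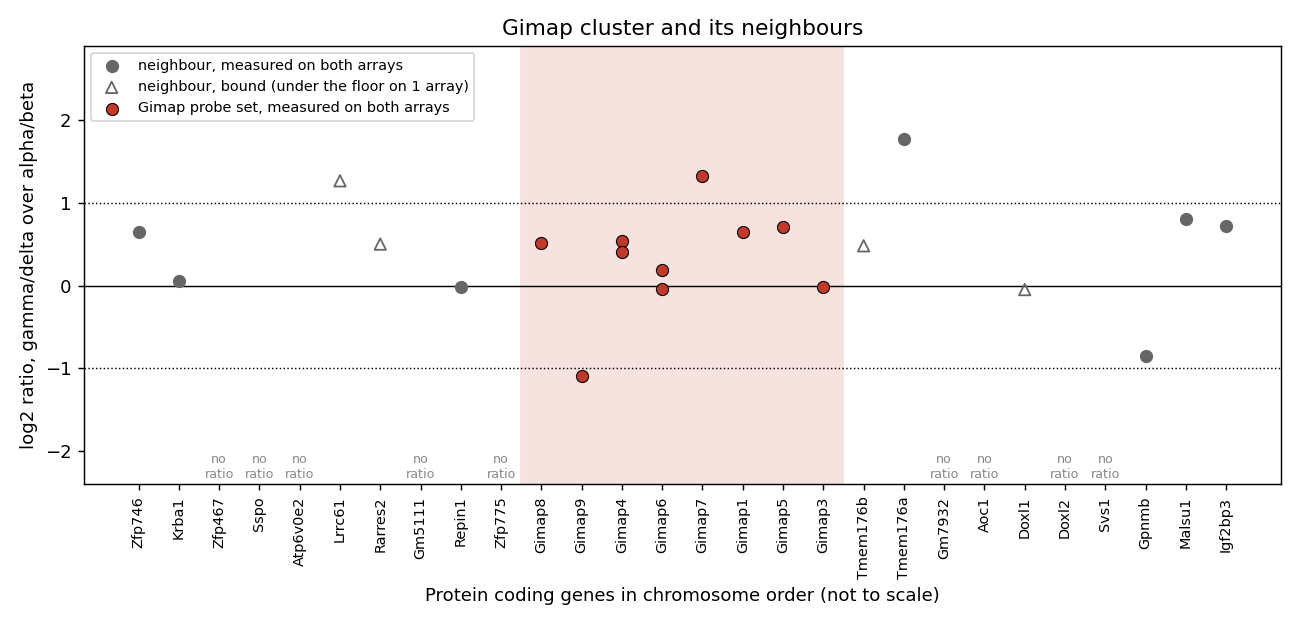
Log2 ratio of gamma/delta over alpha/beta for the Gimap probe sets (red, shaded) and the 10 protein coding genes on each side (grey), in chromosome order and not to scale, 1 array per group. Open triangles are bounds, and genes without a ratio are written so. Gimap9 lies at -1.10 between Gimap8 at 0.51 and Gimap4 at 0.40 and 0.53.

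In the interleukin 7 pathway 5 of 8 listed genes had a ratio, of which 1 reached 2-fold upwards and 1 downwards in gamma/delta T cells, beside 5.82% and 3.93% of all genes. The median over these 5 was -0.50. Il7r, the receptor chain specific for interleukin 7, read 13879 in gamma/delta T cells and 39479 in alpha/beta T cells, 2.84-fold lower in gamma/delta T cells. Its second probe set was lower too, at -1.80. Cish, a feedback inhibitor induced by STAT5, read 679 in gamma/delta T cells and 194.5 in alpha/beta T cells, under the floor, and was at least 2.79-fold higher. Jak1, the kinase bound to the receptor, had a log2 ratio of -0.50 on its brightest probe set, and dimmer ones at -1.05 and -1.12 were past 2-fold. Stat5a and Stat5b, the transcription factors downstream, had log2 ratios of -0.22 and -0.91.

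Of 9 Bcl2 family genes with a ratio, 0 reached 2-fold in either direction on the probe set standing for the gene, where 5.82% of all genes did upwards and 3.93% downwards, and 3 others lay under the floor in both groups. The 4 survival genes had a median log2 ratio of 0.16 and the 5 death genes with a ratio one of -0.03. Mcl1, a survival protein of naive T cells, read 28214 in gamma/delta T cells and 24319 in alpha/beta T cells on its brightest probe set, a log2 ratio of 0.21. Its 6 probe sets ran from -0.89 to 0.21. All but the brightest were below 0, at -0.89, -0.79, -0.79, -0.69 and -0.67, so the sign depends on the probe set taken. Bcl2 stood at 1326 in gamma/delta T cells and 1015 in alpha/beta T cells, with other probe sets at -0.43 and at a bound of at least 0.38 beside its ratio of 0.39, and Bcl2l1 had a log2 ratio of -0.44. The death genes Bcl2l11, Bmf and Pmaip1 had log2 ratios of 0.06, -0.03 and -0.25, and in Bcl2l11, which encodes Bim, a second probe set gave -1.005, past 2-fold. Bmf had another at 0.62.

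The FoxO factors, GSK3 kinases and beta-catenin have been linked to Gimap5 loss in mice. Among 6 of their genes 0 reached 2-fold on the probe set standing for the gene, against 5.82% of all genes upwards and 3.93% downwards. The median log2 ratio was -0.17. Ctnnb1, the gene of beta-catenin, had a log2 ratio of -0.28 on its brightest probe set, and the other two, under the floor in gamma/delta T cells, gave bounds of -0.27 and -1.65 or lower. Foxo3 had one of 0.09. Gsk3b read 5861 in gamma/delta T cells and 10243 in alpha/beta T cells, a log2 ratio of -0.81, but its 6 probe sets ran from -0.81 to 1.47. Foxo1, named after its values were seen, had log2 ratios of 0.55, 0.66 and 0.85 on the 3 probe sets measured in both groups. A further probe set, under the floor in alpha/beta T cells, gave a bound of at least 0.38. With probe sets averaged, dim ones included, Foxo1 was 3.13-fold higher and Ctnnb1 3.12-fold lower in gamma/delta T cells. Of 13 autophagy genes, all with a ratio, 0 reached 2-fold, beside the same 5.82% and 3.93%, and the median was -0.05. This median is the value of Atg16l1, a bound, at 107 in gamma/delta T cells, under the floor, and 251 in alpha/beta T cells. Gabarapl1 likewise had a bound only. Becn1, Map1lc3b and Gabarap were the brightest. Becn1 had a log2 ratio of 0.25 on the probe set standing for it, but -0.42 on another and bounds of -0.29 and -0.96 or lower on the dim ones, under the floor in gamma/delta T cells. Map1lc3b had ratios of -0.54, -0.52 and 0.22 and a bound of at least 0.19, so neither has a settled direction. Gabarap had a log2 ratio of -0.20 on its 1 probe set. Gabarapl2, whose protein has been reported to bind GIMAP6 and which was likewise named after its values were seen, stood at 1492 in gamma/delta T cells and 1303 in alpha/beta T cells.

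**Figure D4:**
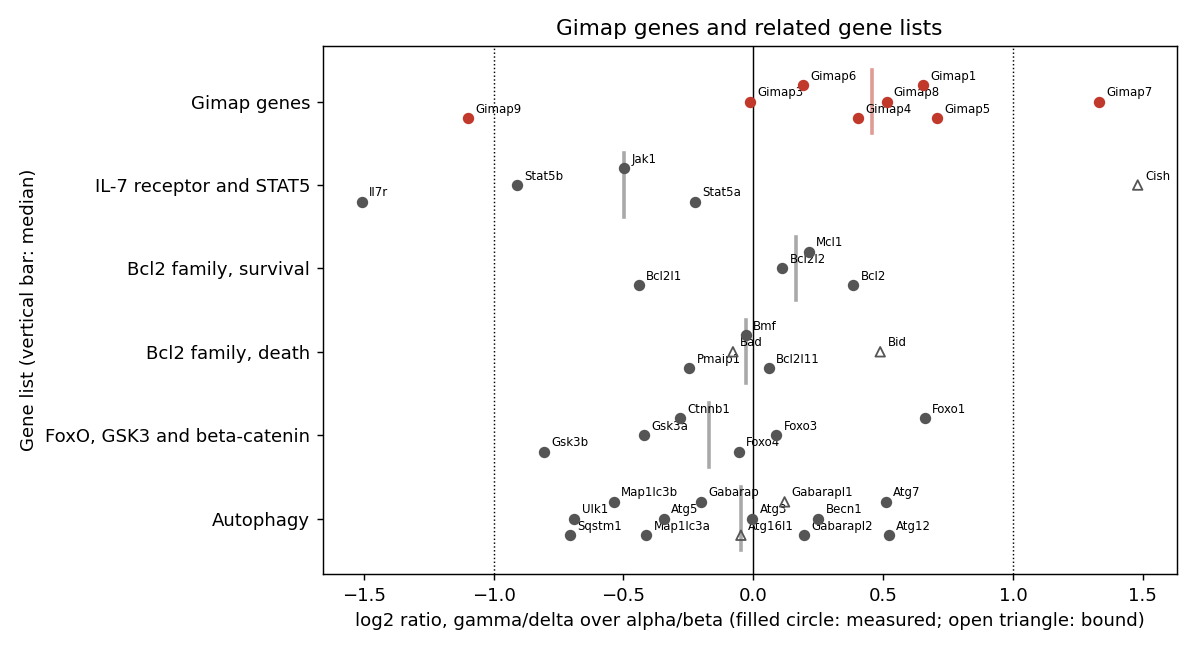
Log2 ratio of gamma/delta over alpha/beta by gene for the Gimap family (red) and 5 related lists (grey), 1 array per group, with the median of each list as a vertical bar and dotted lines at 2-fold. Filled circles are measured on both arrays and open triangles are bounds. The medians run from -0.50 for the interleukin 7 list to 0.46 for the Gimap genes.

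The lineage markers matched the labels in direction. The gamma/delta markers Trgv4, Trgv1, Sox13 and Cd163l1 were each above the floor in gamma/delta T cells and under it in alpha/beta T cells, with bounds from 2.16 to 5.69 on the log2 scale. Cd8a and Cd8b1 had log2 ratios of -3.60 and -2.52. In gamma/delta T cells they read 731 and 382, above the floor, and in alpha/beta T cells 8852 and 2193. The other Cd8a probe sets were lower in gamma/delta T cells too, at -2.10 and at bounds of -1.96, -1.22 and -1.19 or lower. Of 6 general T cell markers, Cd3g and Thy1 were 2.31-fold and 2.15-fold higher in gamma/delta T cells, and the summed signal of the 6 was 94664 in gamma/delta T cells and 60942 in alpha/beta T cells. Cd3e alone gave 59573 of this sum in gamma/delta T cells and 34224 in alpha/beta T cells. Cd3e, Cd2, Cd3d and Cd247 had log2 ratios of 0.80, 0.32, -0.03 and -0.04, and the dimmer probe sets of Cd247 ran from -1.13 to -0.26. Endothelium also makes GIMAP proteins, and of its 6 markers 3 lay under the floor on both arrays, Cdh5, Tie1 and Emcn. Kdr read 388 in gamma/delta T cells and 74.6 in alpha/beta T cells, Pecam1 338 in gamma/delta T cells and 228 in alpha/beta T cells, and Tek 164 in gamma/delta T cells and 388 in alpha/beta T cells, with bounds of 0.67, 0.48 and -0.67 on the log2 scale. The 6 summed to 1180 in gamma/delta T cells and 1048 in alpha/beta T cells. For B cells, 2 of 5 measured markers, Cd79a and Pax5, were under the floor in both groups. Ms4a1 read 858 in gamma/delta T cells and 616 in alpha/beta T cells, a log2 ratio of 0.48. Blnk read 374 in gamma/delta T cells and 263 in alpha/beta T cells, a log2 ratio of 0.51, and Cd79b had a bound of 0.06. The 5 summed to 1634 in gamma/delta T cells and 1413 in alpha/beta T cells. Myeloid markers summed to 907 in gamma/delta T cells and 1001 in alpha/beta T cells, with 4 of 6 under the floor on both arrays. The NK cell markers measured, 2 in all, and the 4 measured for erythroid cells and platelets were all under it in both groups. These sums mix probe sets whose signals cannot be ranked against each other. Those for endothelium, B cells and myeloid cells include signals under the floor, so none of the sums measures cell content. The part of other cells in the Gimap ratios was not tested.

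**Figure D5:**
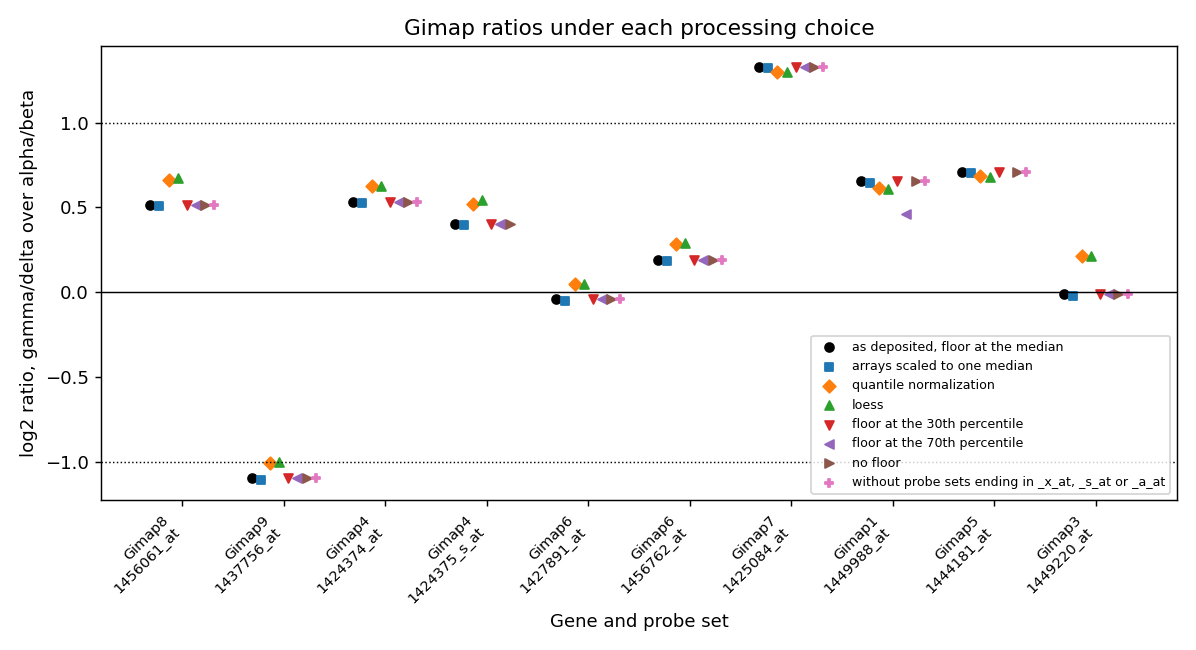
Log2 ratio of gamma/delta over alpha/beta for the 10 Gimap probe sets with a ratio under each processing choice, 1 array per group, with dotted lines at 2-fold. Gimap7 stays above the upper line in all 8 settings drawn, Gimap9 is at or next to the lower line after quantile normalization and loess, and Gimap3 and 1 probe set of Gimap6 change sign under these.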

How the data were processed

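RNA of 2 samples was hybridised to 1 array each. The authors deposited an intensity for each probe set, computed by MAS5 with version 1.0 of Affymetrix Expression Console according to the submitters' processing notes. No genome build applies to these values. The trimmed means, leaving out 2% at each end, were equal at 500.003, so the intensity values were used as deposited. MAS5 spreads weak signals widely, hence the floor at the 50th percentile. A probe set under it on 1 array has a bound and one under it on both has no ratio.

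Gene symbols came from the platform annotation, which gave 1 symbol to 34945 of the 45037 probe sets that are not controls, and all 8 Gimap gene IDs were found in the RefSeq table of GRCm38.p6. No probe set with several symbols held a Gimap symbol. In counts, medians and orders by genes, each gene, in the family or outside it, was represented by its brightest probe set, ranked on the mean of the log2 signals. Ratios were computed in Python 3.11.15 with pandas 2.3.3 and numpy 2.4.6, and the ratio step was tested on simulated data. No test was possible with 1 array per group. The members and all lists were chosen with earlier results of these data known. Every Gimap probe set is named, and of each related list every gene at 2-fold or more and up to 3 others with the highest mean signal. Outside this rule, Gpnmb, Foxo1 and Gabarapl2 were added after their values were seen. Rarres2 and Atg16l1 are named because a median is their value, and Gabarapl1 as a bound. No gene is named for a likeness of pattern, since 2 arrays give only 1 ratio. Median scaling, quantile normalization, loess, other floors, other probe sets and a 1.5-fold call were tried as alternatives.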

Additional observations from a re-analysis of the deposited data

How the results depend on the processing

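Over the 10 Gimap probe sets with a ratio and 7 alternatives, 68 values were computed, of which 67 moved by less than 0.50 on the log2 scale without crossing 2-fold. The other was Gimap9 after loess. Many of these values could not move, since all 10 probe sets lay above the main floor on both arrays. A lower floor, no floor or the removal of suffixes therefore gave back the same ratios, and median scaling shifted all 10 alike. Only quantile normalization and loess could move every ratio by its own amount. The averaging of probe sets is not among the 68 values. With loess the count of probe sets at least 2-fold lower in gamma/delta T cells was 0, and with no floor it was 2, through the dim probe set of Gimap7 (log2 -3.31). At 1.5-fold the count of higher probe sets was 3, and 5 after quantile normalization or loess, both tried at this limit after seeing the data. Of the 40 genes in the 5 related lists, those at least 2-fold higher in gamma/delta T cells numbered 1, but 0 with the floor at the 70th percentile, 4 with no floor and 3 with probe sets averaged. Those at least 2-fold lower numbered 1, but 4 with no floor, 2 when probe sets with the suffixes _x_at, _s_at and _a_at were left out, and 2 with probe sets averaged. Where a floor or a set of probe sets was dropped, the added calls came from dim signals or from the other probe sets of a gene. With the floor at the 70th percentile Gimap5 had no ratio and Gimap1 a bound of 0.46. With probe sets averaged Gimap7 turned to a bound of -0.48, through its dim probe set. The family median stayed between 0.40 and 0.58 by probe sets and between 0.27 (probe sets averaged) and 0.58 by genes. Over the 7 Gimap probe sets with a signal of 1000 or more on both arrays it was 0.19. No replicate could be left out. No paired analysis was possible because each group has 1 array.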
